A study of Arabidopsis thaliana with 23 samples.

Results

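Genome-wide tetra-acetylation of histone H4 (H4ac) was compared between *axe1-5* seedlings given methyl jasmonate (MeJA) and mock-treated *axe1-5* seedlings. *axe1-5* is a mutant of *HDA6*, which encodes a histone deacetylase, so every sample on both sides of the comparison carried the mutation. Seedlings 12 days old were moved to plates with 50 µM MeJA or to mock plates and sampled whole after 3 h, with 2 biological replicates per condition. The wild type (WT), labelled DR5 and in the Col-0 background, was treated in the same way and serves here only as a set of lists that played no part in choosing the genes. A gene gained H4ac when the summit of a peak, its position of highest signal, lay within the gene in both *axe1-5* +MeJA lists and in neither mock list, and it lost H4ac in the opposite case. Of 18364 genes with a summit in at least 1 of the 4 *axe1-5* lists, 808 (4.4%) gained and 671 (3.65%) lost H4ac, and 10262 had a summit in all 4. The choice rests on this contrast, so the gains and losses are a description and were not tested.

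Acetyl groups on the tail of histone H4 loosen its hold on DNA and mark the promoters and first exons of transcribed genes, and deacetylases such as HDA6 remove them. Jasmonates are lipid hormones of wounding, defence and reproductive development. The receptor COI1 binds the active hormone and directs the JAZ repressors to degradation, which frees transcription factors such as MYC2 to bind the G-box and related elements. H3K27me3, trimethylation of lysine 27 of histone H3, is laid down by Polycomb complexes on silent developmental and stress genes.

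MACS gives each peak a fold enrichment over the input, the value used throughout, and where several summits fell in a gene the peak with the largest value stood for it. A gene at 0 is one without a listed summit, which does not say that the mark was absent. The +MeJA lists held 15301 and 13489 peaks and the mock lists 15727 and 13200, so the 2 conditions overlapped in their numbers of peaks. After duplicates the +MeJA libraries kept 10569841 and 14717755 tags and the mock libraries 7025483 and 7222121, so the deeper libraries were both of 1 treatment, and depth and treatment cannot be told apart. With 2 libraries against 2 the smallest p of an exact permutation test is 0.33. Across 8227 genes with a summit in all 8 H4ac lists, the log2 fold enrichments of the 2 *axe1-5* +MeJA libraries correlated at r = 0.692. Each of them correlated at 0.590 to 0.638 with the *axe1-5* mock libraries and at 0.487 to 0.596 with WT, while mock *axe1-5* correlated with WT at 0.645 to 0.702. The +MeJA *axe1-5* libraries thus stood apart from all the others. *HDA6* itself neither gained nor lost the mark, at 9.08 and 10.0 with MeJA and 9.13 and 11 in mock. These values do not check the genotype, since the libraries measured a histone mark and not the transcript.

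The promoters of 4 genes are printed because the results below turn on them. *GRX480* and *NAC019* gained H4ac, *PSBQA*, a photosystem gene, lost it, and *AOS* kept its summits at a lower level. Each run of 300 bases was read from the TAIR10.1 reference (RefSeq), from 250 bases before to 50 bases after the annotated gene start, 5′ to 3′ on the strand of the gene. Capitals mark the G-box CACGTG, which MYC2 binds, and the W-box (TTGACC or TTGACT), which WRKY factors bind, on either strand.
GRX480, chr1:10014207-10014506, minus strand: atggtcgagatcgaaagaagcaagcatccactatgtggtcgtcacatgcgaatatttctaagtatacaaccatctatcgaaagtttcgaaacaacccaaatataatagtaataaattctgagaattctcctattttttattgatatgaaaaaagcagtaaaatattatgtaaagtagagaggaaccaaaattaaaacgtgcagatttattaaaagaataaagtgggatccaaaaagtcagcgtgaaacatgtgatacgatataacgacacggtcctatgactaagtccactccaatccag
NAC019, chr1:19698433-19698732, minus strand: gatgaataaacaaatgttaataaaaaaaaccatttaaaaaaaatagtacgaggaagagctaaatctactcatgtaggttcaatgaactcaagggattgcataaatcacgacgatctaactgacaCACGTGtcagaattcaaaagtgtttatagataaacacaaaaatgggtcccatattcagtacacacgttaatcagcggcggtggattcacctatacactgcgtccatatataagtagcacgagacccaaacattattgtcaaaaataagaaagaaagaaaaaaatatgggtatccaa
PSBQA, chr4:11334102-11334401, plus strand: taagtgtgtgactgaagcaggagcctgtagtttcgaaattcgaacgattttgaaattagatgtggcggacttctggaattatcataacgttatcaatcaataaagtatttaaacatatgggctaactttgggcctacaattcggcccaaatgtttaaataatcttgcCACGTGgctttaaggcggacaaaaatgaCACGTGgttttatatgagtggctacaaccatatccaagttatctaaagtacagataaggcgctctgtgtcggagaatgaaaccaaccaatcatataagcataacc
AOS, chr5:17099546-17099845, minus strand: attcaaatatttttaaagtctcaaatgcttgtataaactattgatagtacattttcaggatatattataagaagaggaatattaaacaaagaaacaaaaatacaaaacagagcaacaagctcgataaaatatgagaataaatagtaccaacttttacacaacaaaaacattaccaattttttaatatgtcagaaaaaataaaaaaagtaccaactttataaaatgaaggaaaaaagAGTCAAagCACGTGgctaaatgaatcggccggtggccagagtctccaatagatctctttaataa

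The *NAC019* promoter held 1 G-box, at position -126 from the gene start, and the *GRX480* promoter held none of these letters. *PSBQA* held 2, at -83 and -55. In *AOS* a G-box at -6 lay beside a W-box at -14. Over all 27444 protein-coding promoters, 7.68% held a G-box, 32.4% a W-box and 2.57% a GCC-box (GCCGCC, which ERF factors bind). Among the 745 protein-coding genes that gained H4ac the shares were 6.98%, 34.0% and 2.55%, and among the 618 that lost it they were 9.55%, 31.4% and 3.56%. Each share thus lay within 2 percentage points of that in promoters at large.

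Jasmonate genes were found on both sides. The lists of jasmonate synthesis, signalling, turnover and response held 63 genes, of which 55 had a summit in at least 1 list, 7 gained H4ac and 4 lost it. A further 25 had a summit in all 4 lists, and 8 had none, among them *JAR1*, which encodes the enzyme that makes the active conjugate. The shares of the 55, 12.7% gained and 7.27% lost, stand beside 4.4% and 3.65% of all genes. The 7 gained genes came from synthesis (1), signalling (2), turnover (1) and response (3), and the 4 lost genes from synthesis (1), signalling (2) and response (1).

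Among the genes of synthesis, *LOX5* (AT3G22400, chromosome 3, 7926728 to 7931351), a lipoxygenase that oxidises fatty acids at carbon 9, gained H4ac with fold enrichments of 6.82 and 11.5. WT had a summit there in 1 +MeJA list only, at 4.09. *LOX1* (AT1G55020), of the same enzyme class, went the other way and was at 4.59 and 9.17 in mock. Neither of these enzymes is on the main route to jasmonate, which starts with oxidation at carbon 13. Of the enzymes on that route, *LOX3*, *LOX4*, *AOS*, *AOC2*, *AOC3*, *AOC4* and *OPR3* had a summit in all 4 lists. Others of the list met the rule on neither side: *DAD1*, a phospholipase gene (7.47 and 9.54 with MeJA, 4.67 in 1 mock list), *AOC1* (8.68 and 11.3 with MeJA, 4.83 in 1 mock list) and *LOX6* (5.94 in 1 +MeJA list only) had their higher values with MeJA, and *LOX2* had a summit in 1 mock list only, at 3.49.

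Of the signalling genes, the repressor genes *JAZ5* and *JAZ9* gained H4ac. *JAZ5* (AT1G17380) was at 6.82 and 10.0 with MeJA. Peaks of both mock lists also spanned the whole of *JAZ5*, at 5.56 and 7.83, with their summits 447 and 503 bp beyond the gene end, so the gain at this gene is a difference in where the summit was placed and not in whether a peak was listed. *JAZ9* (AT1G70700, annotated as *TIFY7*) was at 4.39 and 5.46, no mock peak overlapped it, and in WT it had summits in both +MeJA lists at 5.92 and 7.81 and in 1 mock list at 3.07.

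*JAZ12* (AT5G20900) lost its summits, which stood at 6.61 and 9.40 in mock, and no +MeJA peak of *axe1-5* overlapped it. In WT *JAZ12* had a summit in all 4 lists, at 7.48 and 10.5 with MeJA and 5.66 and 7.09 in mock. *MYC2* (AT1G32640, chromosome 1, 11798119 to 11801407), which encodes the bHLH factor that drives early jasmonate responses, was at 8.87 and 13.8 in mock *axe1-5* and was counted as lost. With MeJA, peaks of 10.9 and 12.0 lay over *MYC2* and covered 3210 and 3122 of its 3289 bp, but their summits lay 1148 and 1212 bp beyond the gene end. The mark was thus still listed over *MYC2*. In WT +MeJA the summits stayed within *MYC2*, at 14.2 and 16.7.

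*ORA47* (AT1G74930), an AP2/ERF gene of early jasmonate responses, was a loss of the same kind as *MYC2*. Its mock values were 5.67 and 9.93, and with MeJA peaks of 8.64 and 11.4 covered the whole gene with summits 1381 and 1408 bp before its start. When peaks with a summit in the 2000 bp upstream were also assigned to the gene, *ORA47* was higher with MeJA. Peaks of the other side that overlapped the gene with their summit outside it were commoner at losses than at gains. Of the 671 lost genes, 381 (2.07% of all genes with a summit) had no overlapping +MeJA peak. Of the 808 gained genes, 596 (3.25%) had no overlapping mock peak. An overlap of any length counted, so the remaining genes need not be shifts of this kind.

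The gained turnover and response genes had no overlapping peak in mock *axe1-5*, and most of them were marked with MeJA in WT too. *ST2A* (AT5G07010), a sulfotransferase that acts on hydroxyjasmonate, was at 5.07 and 8.87 in *axe1-5* +MeJA and at 4.67 and 6.27 in WT +MeJA. *VSP1* (AT5G24780), a vegetative storage protein and a classic marker of the response, was at 4.66 and 7.28 in *axe1-5* +MeJA and at 5.32 and 5.43 in WT +MeJA. *NAC019* (AT1G52890, chromosome 1, 19696923 to 19698482), a NAC factor induced by jasmonate and drought, was at 7.35 and 8.44 in *axe1-5* +MeJA and at 7.80 and 8.65 in WT +MeJA. None of these 3 genes had a summit in a mock list of either genotype, so each is also a gain of WT. *TAT3* (AT2G24850), a tyrosine aminotransferase induced by wounding and jasmonate, was at 5.09 and 6.92 in *axe1-5* +MeJA and had no summit in any WT list.

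*JRG21* (AT3G55970, chromosome 3, 20766735 to 20769410) encodes a jasmonate-induced 2-oxoglutarate oxygenase that inactivates jasmonate by hydroxylation. It was left out of the turnover list because the annotation lacks the name used there, and it is named here after its values were seen. *JRG21* was at 9.0 and 10.0 in *axe1-5* +MeJA and 6.54 and 8.57 in WT +MeJA, with no summit in the mock lists. The 2 summits of *axe1-5* lay 281 and 356 bp from the gene start, in peaks of 387 and 666 tags.

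**Figure D1:**
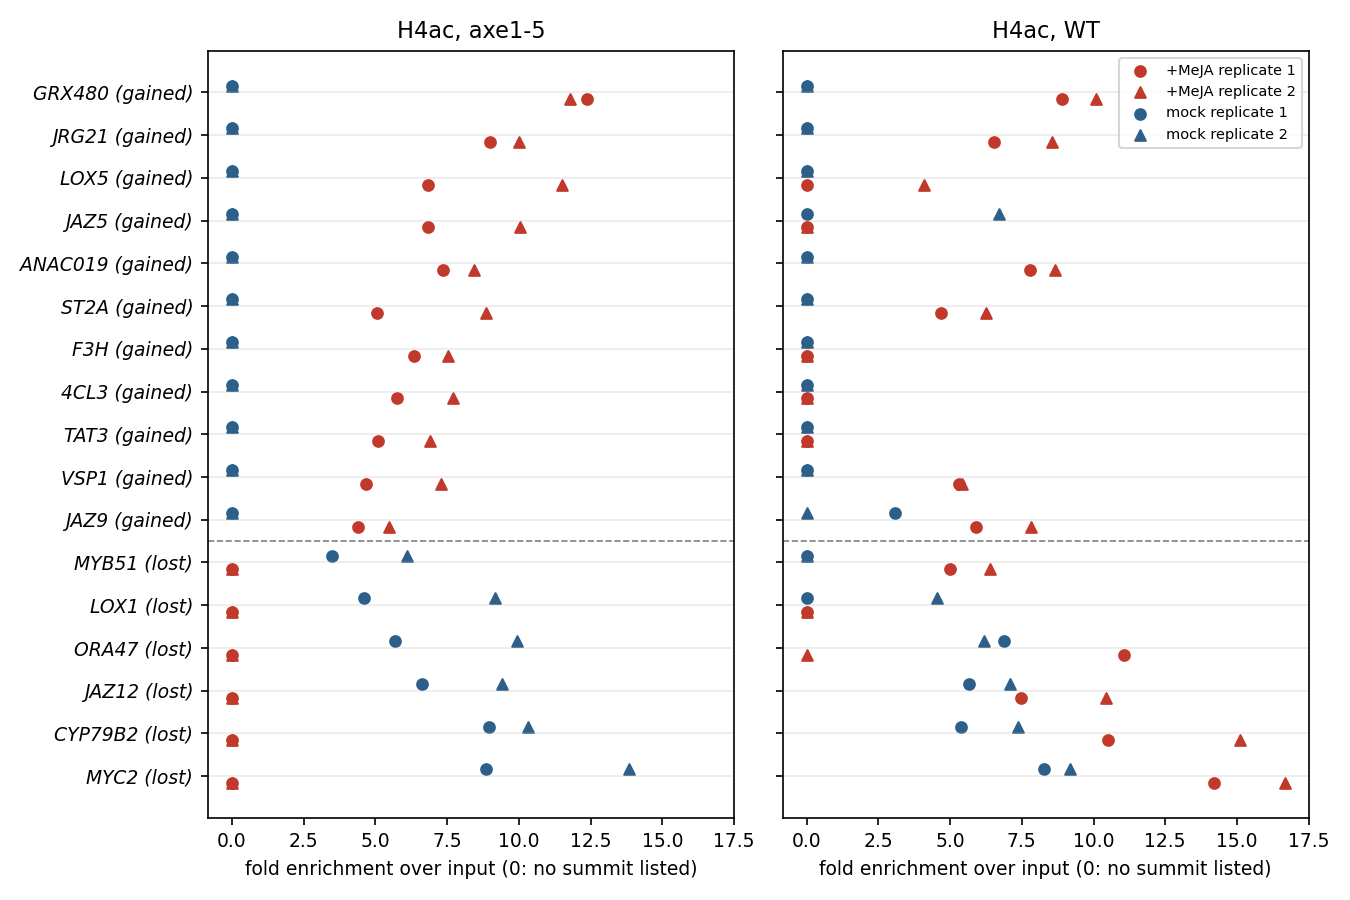
Fold enrichment of H4ac over input in each *axe1-5* library (left) and WT library (right) at *GRX480*, *JRG21* and the gained and lost genes of the jasmonate, glucosinolate and phenylpropanoid lists, where colours show treatment, shapes show replicates and 0 means that no summit was listed. The split of the left panel was fixed by the choice of genes, whereas in the right panel *GRX480*, *JRG21*, *ANAC019* (annotated *NAC019*), *ST2A* and *VSP1* show the same split and *JAZ12*, *CYP79B2* and *MYC2* have summits in all 4 WT lists.

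Among the defence pathways downstream, no glucosinolate gene gained H4ac and 2 of the 9 with a summit lost it. *MYB51*, a regulator of indole glucosinolates, was at 3.49 and 6.09 in mock *axe1-5*, whereas in WT its summits were in the +MeJA lists, at 5.0 and 6.41, and in neither mock list. *CYP79B2*, the enzyme that makes indole-3-acetaldoxime from tryptophan, was at 8.96 and 10.3 in mock. With MeJA, peaks of 12.9 and 16.5 covered 1473 and 1537 of its 2561 bp, with summits 3235 and 3205 bp beyond the gene end. A peak was thus still listed over part of *CYP79B2*, and whether its own summit had moved was not tested. Of 13 phenylpropanoid and flavonoid genes with a summit, 2 gained H4ac and 0 lost it: *4CL3*, a 4-coumarate CoA ligase (5.76 and 7.72), and *F3H*, flavanone 3-hydroxylase (6.34 and 7.53). Neither had a summit in any WT list.

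The strongest gains with no overlapping mock peak were led by *GRX480* (AT1G28480, chromosome 1, 10013434 to 10014256), a glutaredoxin of the salicylate and jasmonate cross-talk, at 12.4 and 11.8. Both WT +MeJA lists had a summit there as well, the lower at 8.90, and no mock list of either genotype did. *SUVH4*, also known as *KRYPTONITE*, which methylates lysine 9 of histone H3, was at 10.4 and 11.9, with WT at 9.89 and 9.58 with MeJA and 4.98 in 1 mock list. *COP9*, a subunit of the COP9 signalosome that acts on cullin ubiquitin ligases, was at 9.39 and 9.52 and had summits in 3 WT lists. *BRIZ2*, a RING protein needed for germination (9.47 and 10.9), and *emb1796*, a pentatricopeptide repeat protein (9.47 and 9.96), had a summit in all 4 WT lists, so for these the mock *axe1-5* lists were the exception.

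The other 5 of the 10 strongest gains were rarer in WT. *PSD2*, a phosphatidylserine decarboxylase that makes phosphatidylethanolamine, was at 9.31 and 12.0. *BZIP27*, a paralogue of the flowering factor FD, was at 9.54 and 9.81. The genes AT3G48550 (10.2 and 12.3) and AT4G39320 (9.94 and 10.5), known only by their family, joined them in having no WT summit. *LSU4*, of a family induced by sulphur shortage, was at 9.30 and 9.77 and had a summit in 1 WT +MeJA list, at 6.76. Of 895 other non-coding loci with a summit 40 were gained (4.47%), and of 413 pseudogenes 23 (5.57%), near the 4.4% of all genes. The strongest without a mock peak were AT3G00780 (10.0 and 10.7), AT1G05523 (9.13 and 11.2) and AT5G00330 (8.53 and 10.6), none with a WT summit.

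The strongest losses without an overlapping +MeJA peak were mostly genes marked throughout WT. AT4G05070, annotated as a wound-responsive protein, was at 8.64 and 9.07 in mock *axe1-5* and between 8.20 and 10.7 in the 4 WT lists. AT3G66654, a cyclophilin, had the highest values, 9.19 and 9.49. The others with a described family were AT3G07790 (DGCR14-like, 8.50 and 11.8), AT5G62720 (a membrane protein of the HPP family, 8.41 and 11.7), AT1G47530 (a MATE efflux carrier, 8.32 and 10.3), AT3G62310 (an RNA helicase, 8.14 and 9.85), AT4G32060 (an EF-hand calcium binder, 8.0 and 9.15) and AT1G19860 (a zinc finger protein, 7.99 and 8.53). Of these 8 genes, 6 had a summit in all 4 WT lists. When summits in the 2000 bp upstream were also assigned to the gene, AT3G62310 was higher with MeJA, by 0.31 in mean fold enrichment. The uncharacterised AT5G24570 (8.24 and 9.14) and AT1G77765 (8.14 and 9.13) complete the 10. The strongest non-coding losses were the pseudogene AT4G37620 (9.88 and 9.23), AT3G06125 (9.04 and 10.8) and AT3G09775 (7.90 and 9.92), each with a summit in all 4 WT lists.

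At the edge of the rule the values were low. The gained genes with the lowest values were *VIN3*, the vernalisation gene, at 3.52 and 4.76, AT1G52130 at 3.44 and 4.43 and AT5G50115 at 3.44 and 4.90. Just outside lay *CYP94B1*, which encodes a jasmonoyl-isoleucine hydroxylase. Its +MeJA values of 6.75 and 9.36 were like those of gained genes, but 1 mock list held a summit at 2.50. On the side of the losses, the corepressor gene *TPR1* was at 3.88 and 5.75 in mock and missed the rule through a single +MeJA summit at 4.15. Among the last genes inside, AT2G23680 was at 2.97 and 5.17, AT1G26911 at 2.81 and 5.66 and AT5G51780 at 2.81 and 6.63.

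By function, receptor-like kinases, which sense peptides, pathogens and the state of the cell wall at the plasma membrane, made up the largest group of gains. Of 291 such genes with a summit, 29 gained H4ac (9.97%, against 4.4% of all genes) and 2 lost it (0.687%), 1 of these 2 by its annotation text alone (AT5G16660). Their fold enrichments with MeJA ran from 3.76 to 8.28 in replicate 1 and from 5.26 to 10.3 in replicate 2. The highest were AT1G72460 (8.28 and 9.81) and AT1G05700 (7.61 and 10.3), both with leucine-rich repeats, and *CRK5* (6.10 and 7.43), of the cysteine-rich class. Also gained were *FRK1*, a marker of the response to flagellin (5.40 and 6.04), *WAK3*, a wall-associated kinase (4.07 and 6.13), *IKU2*, which sets seed size (5.24 and 8.51), and *SERK1*, a co-receptor (5.59 and 7.59). No mock peak overlapped 22 of the 29, and 21 had no summit in WT, near the shares of all 808 gained genes (596 and 567). Among the 184 receptor-like kinase genes that could be fitted for their level, 6 were higher and 0 lower with MeJA. Of all 10262 genes fitted, 120 were higher and 61 lower.

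Genes of the cell wall were gained in 15 of 167 cases (8.98%) and lost in 6 (3.59%). All 15 gains were without a mock peak over the gene and 14 had no WT summit. *IRX1* (4.85 and 6.78) and *IRX3* (5.98 and 9.09), both catalytic subunits of the cellulose synthase of secondary walls, gained the mark. *CESA1*, a subunit of the primary-wall complex, was among the losses, at 5.27 and 7.41 in mock. *CSLA02*, of the glucomannan synthase family (7.43 and 8.24), *EXPA10*, an expansin that loosens walls (6.12 and 7.92), and *EXT3*, an extensin (5.82 and 5.62), were gained as well.

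ABC transporters were gained in 8 of 72 cases (11.1%) and lost in 0. All 8 had no WT summit, and among them were *ABCG4* (7.19 and 8.29) and *ABCB12* (7.12 and 7.52). The 2-oxoglutarate oxygenases, to which *JRG21* belongs by function, were gained in 8 of 68 cases (11.8%) and lost in 3 (4.41%). *GA20OX1*, which makes gibberellin precursors, was the highest of these at 7.80 and 10.4. Cytochrome P450 genes were gained in 13 of 137 cases (9.49%) and lost in 5 (3.65%). Among them *CYP707A1* (6.81 and 6.29) breaks down abscisic acid, *DWF4* (5.91 and 6.34) acts in brassinosteroid synthesis and *CYP71A13* (5.16 and 7.33) in camalexin synthesis. *CYP705A1* had the highest values of the family, 7.82 and 9.05.

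Of the regulators, B3 domain genes were gained in 8 of 58 cases (13.8%) and lost in 1 (1.72%), a gene matched by its annotation text only (AT1G13930, oleosin-B3-like). *ABI3*, a master regulator of seed maturation, was at 4.85 and 6.20, *DPA4*, which acts in leaf margins, at 7.51 and 9.42, and *REM22* at 6.08 and 6.13. MADS-box genes went both ways, 6 gained and 4 lost of 53 (11.3% and 7.55%). The flowering repressor gene *MAF5* gained H4ac (8.18 and 5.43), while its relative *MAF1* lost it (5.76 and 9.23 in mock). F-box genes, whose products choose targets for ubiquitination, were gained in 20 of 258 cases (7.75%) and lost in 5 (1.94%). AP2/ERF genes (3 gained and 3 lost of 88), WRKY genes (1 and 1 of 38) and NLR disease resistance genes (3 and 3 of 132) were gained in no larger a share than all genes.

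Among losses, the groups with the highest shares were photosynthesis and ribosomal protein genes, although most of the 671 lost genes lay outside both. Of 70 photosynthesis genes with a summit, 12 lost H4ac (17.1%, against 3.65% of all genes) and 0 gained it. The 12 were subunits of photosystem II (*PSBX*, *PSBQA*, *PSBO2*, *PSBP-1*, *PSBW*), its assembly factor *LPA19*, subunits of photosystem I (*PSAE-2*, *PSAK*) and its antenna *LHCA2*, the small subunits of Rubisco *RBCS1A* and *RBCS1B*, and *PORB*, which makes chlorophyllide. Their mock values ran from 3.53 to 7.43 in replicate 1 and from 5.76 to 11.1 in replicate 2, so none was among the strongest losses. *PSBX* was at 7.43 and 7.81, *PSBQA* at 6.95 and 11.1 and *RBCS1A* at 3.53 and 6.05. Both WT +MeJA lists had a summit in all 12 genes, and 9 of them had one in all 4 WT lists. At *PSBQA* the WT fold enrichments were 11.3 and 12.0 with MeJA and 7.11 and 5.34 in mock. No +MeJA peak of *axe1-5* overlapped 8 of the 12 genes (11.4% of the group, against 2.07% of all genes). The seedlings were whole, so fewer cells of a type and less of the mark per cell cannot be told apart.

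Ribosomal protein genes were lost in 26 of 274 cases (9.49%) and gained in 2 (0.73%). The highest were *EMB3137* (7.52 and 7.65 in mock), *RPS5A* (7.24 and 10.4) and AT4G36130, of the L2 family (6.23 and 10.2), and *RPS6*, the kinase target of the small subunit, was at 5.39 and 8.68. In both WT +MeJA lists 21 of the 26 had a summit, and in both WT mock lists 9, against 507 and 326 of all 671 lost genes. No +MeJA peak of *axe1-5* overlapped 16 of the 26, against 381 of the 671. Most ribosomal protein genes were neither gained nor lost, 127 of the 274 having a summit in all 4 *axe1-5* lists. Of these 127, 49 (38.6%) lay above 0 in the change of level against 49.6% of all genes fitted, with a median of -0.10 on the log2 scale. For the 30 photosynthesis genes with a summit in all 4 lists, 8 (26.7%) lay above 0 and the median was -0.07.

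**Figure D2:**
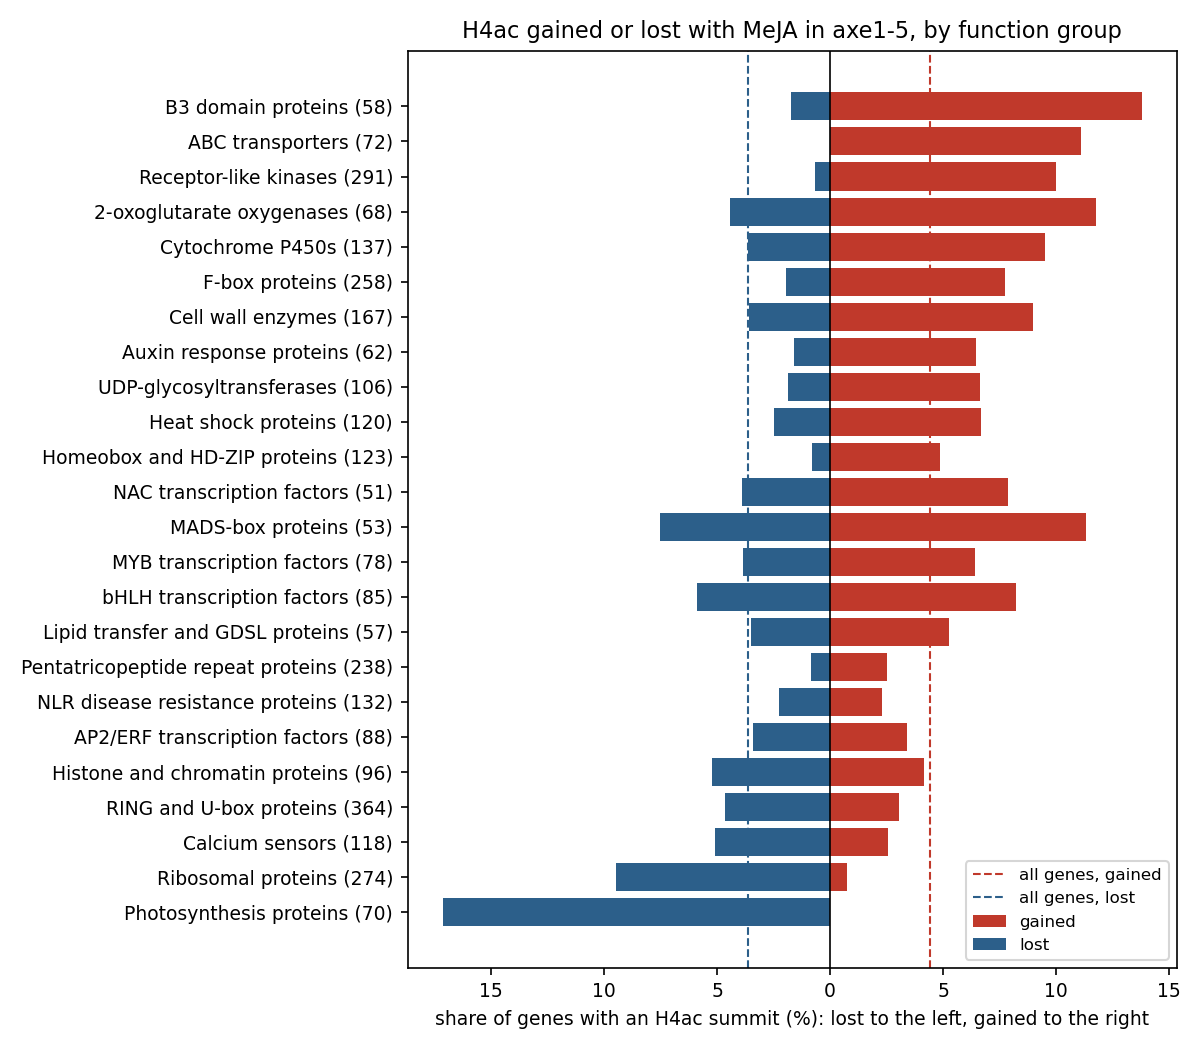
Shares of genes that gained H4ac (red, to the right) or lost it (blue, to the left) with MeJA in *axe1-5*, in percent of the genes of each function group with a summit in at least 1 of the 4 lists (number in brackets), for the 24 groups with at least 5 gained or lost genes. Dashed lines mark the shares over all genes (4.4% and 3.65%), and photosynthesis and ribosomal protein genes stand at the bottom, with 17.1% and 9.49% lost, opposite the B3, ABC transporter and receptor-like kinase groups at the top.

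These 8 groups (receptor-like kinases, cell wall, ABC transporters, B3, P450 and F-box among gains, photosynthesis and ribosomal proteins among losses) were counted again under 11 other settings, each library left out in turn included. In each group the share stayed above that of all genes under the same setting in 11 of 11. Most of these settings were not independent of the first count. All 808 gains and 671 losses stayed called with any library left out and under the 2-fold rule. Protein-coding genes only and no overlapping peak gave parts of the same calls. The number of photosynthesis genes lost ranged from 8 to 19 and that of ribosomal protein genes from 16 to 54, while gained receptor-like kinase genes numbered 22 to 42. With peaks of a score of at least 100 only, 9 photosynthesis genes were lost, of which 5 were among the 12. Of 24 ribosomal protein losses at that score, 8 were also losses above. Among gains the shared members were 9 of 24 for receptor-like kinases, 5 of 9 for cell wall and 3 of 9 for B3. They were 2 of 9 for ABC transporters, 2 of 12 for P450 and 3 of 16 for F-box. Membership thus moved more than the share. ABC transporters had 4 losses at that score and 3 with equal numbers of peaks, but 0 with an FDR of at most 5 percent. The groups were chosen with results of these data known, and their counts are no test. The 30 groups together held 193 of the 808 gained and 121 of the 671 lost genes.

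Of 5 leaf markers 4 had a summit, and *RBCS1A*, counted above, was lost. *PSBO1* had a summit in 1 mock list only, at 6.44, *LHCB4.1* was at 12.9 in 1 +MeJA list and at 8.52 and 12.9 in mock, and *RCA* had a summit in all 4 lists. Of 5 root markers 2 had a summit, and both had higher values with MeJA. *SCR* was at 12.2 and 13.8 with MeJA and 5.96 and 8.69 in mock, a change of 0.55 on the log2 scale that did not pass the threshold (limma adjusted p = 0.0922), and *NRT2.1* was at 5.24 and 5.77 with MeJA and at 3.8 in 1 mock list. The flower and seed genes *AG*, *AP3*, *CRA1*, *SESA1* and *LEC1* had none, and *PI*, a petal and stamen identity gene, was lost from low mock values of 3.10 and 5.98 under H3K27me3 in all 4 *axe1-5* lists. The part of tissue make-up in the gains and losses was not tested.

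The WT lists, which were not used to choose the genes, held summits in a smaller share of gained than of lost genes. By the rule, gained genes had a summit in neither mock list of the mutant, and lost genes had it in both. The mock libraries of the mutant correlated with WT at 0.645 to 0.702, and its +MeJA libraries at 0.487 to 0.596. The WT difference can thus partly follow from the rule, and how far was not tested. All 18364 genes, the set compared below, include the 10262 with a summit in all 4 lists of the mutant. Of the 808 gained genes 567 (70.2%) had no summit in any of the 4 WT lists, where 14.7% of all 18364 genes had none. Only 35 gained genes (4.33%) had a summit in all 4 WT lists. Of the 671 lost genes 52 (7.75%) had no WT summit, and 297 (44.3%) had one in all 4, against 57.1% of all genes. Both WT +MeJA lists had a summit in 507 lost genes (75.6%), against 74.3% of all genes. Both WT mock lists had a summit in 326 lost genes (48.6%), against 59.2% of all genes. Most gained genes were thus without a listed summit in WT under either treatment. Lost genes had summits in WT with MeJA in a share near that of all genes, and in WT mock in a smaller share.

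By the same rule 1188 of 16649 genes were gained with MeJA in WT (7.14%) and 141 were lost (0.847%). The genes gained in both genotypes numbered 55, which is 6.81% of the *axe1-5* gains and 4.63% of the WT gains, and *GRX480*, *JRG21*, *NAC019*, *ST2A* and *VSP1* are among them. Of all 18364 genes 5.61% were gained in WT, so the share among *axe1-5* gains was close to that. Losses shared by both numbered 15, or 2.24% of the *axe1-5* losses and 10.6% of the WT losses, where 0.604% of all 18364 genes were lost in WT. With no overlapping peak allowed on the other side, 1 of 381 losses (0.262%) was shared. A further 54 genes lost in *axe1-5* (8.05%) were gained in WT, *MYB51* being an example, and 3 genes gained in *axe1-5* were lost in WT. The mock WT libraries kept 5927987 and 3235473 tags, fewer than any *axe1-5* H4ac library, and the part of this depth in the WT lists was not tested.

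**Figure D3:**
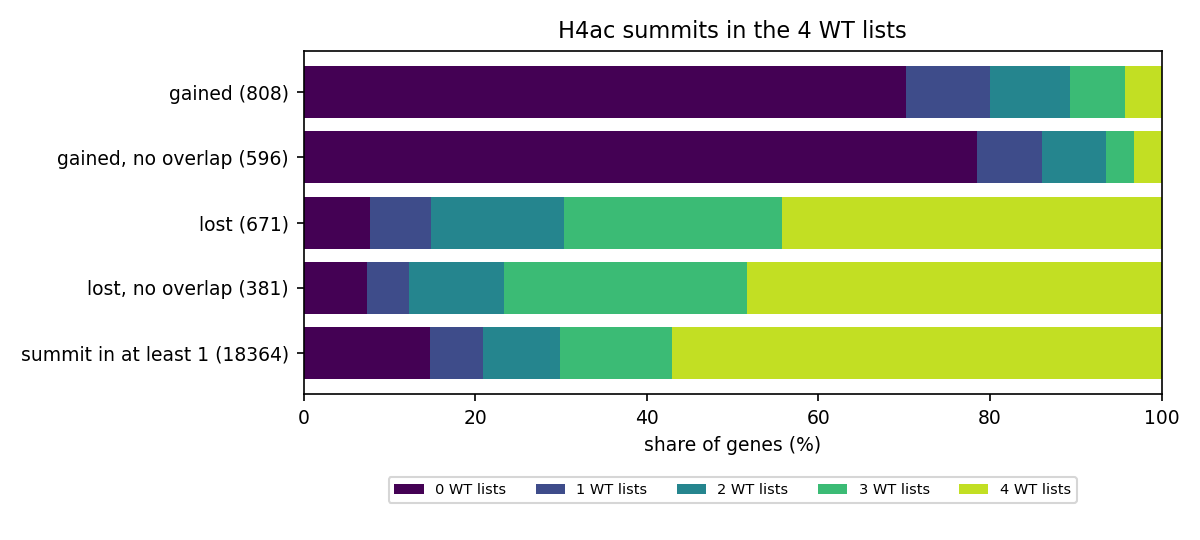
Shares of genes, in percent, with an H4ac summit in 0 to 4 of the 4 WT lists, for genes gained or lost with MeJA in *axe1-5*, for those with no overlapping peak on the other side, and for all genes with a summit in at least 1 *axe1-5* list (number of genes in brackets). Of the gained genes 70.2% fall in the class with 0 WT lists, and of the lost genes 44.3% in the class with 4.

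H3K27me3, measured in *axe1-5* under the same treatments with 2 replicates each, was frequent at gained genes and rare at lost genes. A summit of H3K27me3 lay in 30.1% and 30.7% of the gained genes with MeJA and in 28.5% and 22.2% in mock. At lost genes the shares were 4.02% and 4.47% with MeJA and 4.02% and 2.09% in mock, and over all 18364 genes they ran from 5.68% to 9.71%. H3K27me3 was therefore listed at the gained genes with and without MeJA, and few changed that mark by the same rule. The fragment lengths used in peak calling were 61 and 209 bp with MeJA and 282 and 53 bp in mock. Median peak lengths were 596 and 2202 bp against 2911 and 190 bp, so the counts and values below compare unlike peak calls. Of the 808, 5 gained H3K27me3 (0.619%) and 4 lost it (0.495%), against 98 (0.534%) and 8 (0.0436%) of all 18364 genes, so 4 of the 8 losses of H3K27me3 fell in genes that gained H4ac. At *JRG21* it was at 11.4 and 12.8 with MeJA and 11.1 and 12.4 in mock. *ABI3* was at 15.4 and 14.1 with MeJA and 15.9 and 28.3 in mock, *CYP78A5*, a regulator of organ size, at 14.99 and 16.1 against 15.8 and 21.2, and *TAT3* at 10.5 and 8.04 against 9.20 and 15.9.

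H3K27me3 was more frequent at genes without a listed H4ac summit in WT, gained or not. Of the 567 gained genes without a WT summit, 273 (48.1%) had H3K27me3 in at least 1 *axe1-5* list, near the 42.0% of all 2702 genes without a WT summit. Among the 241 gained genes with a WT summit the share was 16.2%, against 6.76% of all such genes, so an excess remained there. Each replicate of H3K27me3 was called against the same input as H4ac, so the lists of the 2 marks are not independent. The H3K27me3 libraries kept from 1439377 to 8879066 tags, fewest in mock replicate 2, which also gave the lowest shares.

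**Figure D4:**
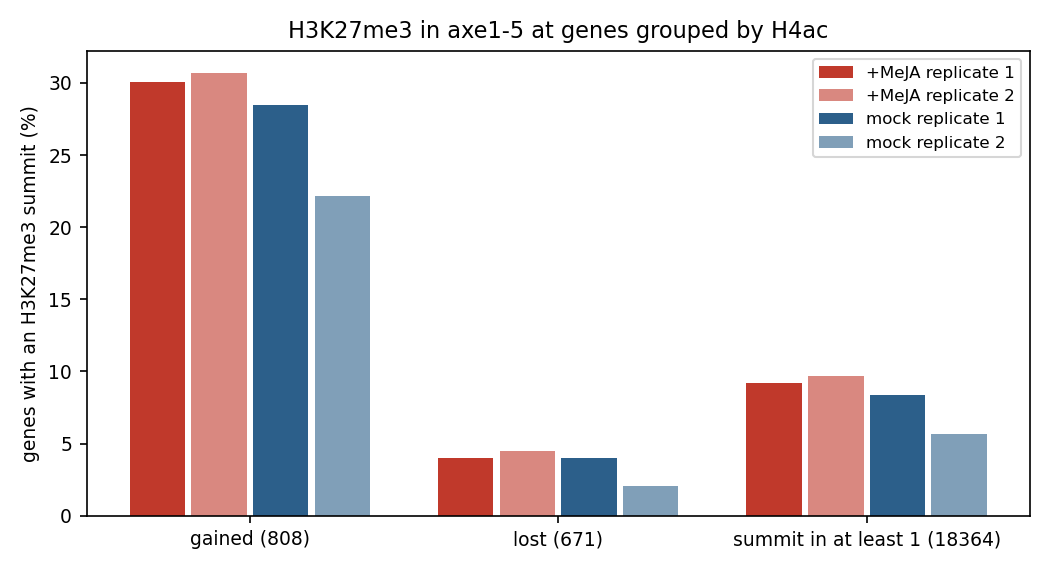
Share of genes, in percent, with an H3K27me3 summit in each of the 4 *axe1-5* H3K27me3 lists (bars), for genes that gained H4ac with MeJA, genes that lost it and all genes with an H4ac summit (number in brackets). The 4 bars of the gained genes stand between 22.2% and 30.7% and those of the lost genes between 2.09% and 4.47%.

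Gained and lost genes also differed in where and how strong their peaks were. The gained peaks had median fold enrichments of 6.02 and 7.82, below the 9.08 and 11.3 of genes with a summit in all 4 lists, and 44.8% and 55.1% of them had a score under 100, against 10.5% and 20.1%. The lost peaks had medians of 5.43 and 7.92, against 6.79 and 9.95. Gained and lost genes thus came from the weaker peaks of their lists, and when only peaks with a score of at least 100 were used, 292 of the 808 gains and 246 of the 671 losses were called again. Gained summits lay deeper in the gene, at medians of 459 and 448 bp from its start, and 24.0% and 24.3% of them lay over 1000 bp in. Lost summits lay at 293 and 314 bp, with 6.56% and 6.41% over 1000 bp, and summits of genes in all 4 lists at 339 to 362 bp. In protein-coding genes 82.4% and 83.6% of gained summits were in coding exons, against 58.4% and 58.9% of lost summits, of which 23.1% and 24.4% were in introns and 18.4% and 16.7% in untranslated exons. Median gene lengths were close, 2190 bp for gained and 2251 bp for lost genes.

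The genes were spread over the genome. Gains made up 3.62% to 4.77% of the genes with a summit on each of the 5 chromosomes, and losses 3.33% to 4.02%. Neighbouring gains were few, with 3 adjacent genes each in AT1G57620 to AT1G57650 (chromosome 1, 21342627 to 21354311) and in *STS*, a stachyose synthase gene, to AT4G01990 (chromosome 4, 853922 to 872920). The longest run of losses was AT3G07080 to *ERMO2* (chromosome 3, 2241002 to 2250796), also of 3 genes. Genes that overlap can share a peak, and the 808 gains rested on 789 peaks in each list and the 671 losses on 648.

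The level of H4ac could be tested only at the 10262 genes with a summit in all 4 lists, none of which was gained or lost. Fold enrichments were divided by the median of the library and compared on the log2 scale with limma, with Benjamini-Hochberg adjustment over all 10262 genes. In limma the variance is shared over genes, here with a median of 371 residual plus prior degrees of freedom. The SE and p of a gene thus rest mostly on that shared spread and little on its own replicates. With MeJA 120 genes were higher (1.17%) and 61 lower (0.594%). Before the division the median gene stood 0.30 higher with MeJA on the log2 scale, so the changes are relative to that shift. The genes called higher were weakly marked in mock, with a median fold enrichment of 5.12, and those called lower strongly marked, with 12.7. The calls rest on the division and on single libraries: 0 genes were called in either direction without the division or without mock replicate 1, and 0 higher and 2 lower without +MeJA replicate 1.

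Jasmonate genes that kept their summits were lower where they changed. Of the 25 that could be fitted, 0 were higher and 3 were lower, and the median change was -0.03, with 14 of 25 below 0. *AOS* (AT5G42650), allene oxide synthase, which commits the 13-hydroperoxide to jasmonate, was at 6.81 and 7.83 with MeJA and 8.74 and 12.9 in mock. The groups did not overlap, and its change was -0.84 on the log2 scale (SE 0.19, limma adjusted p = 0.00503, n = 2 against 2). *AOC4*, the cyclase of the next step, was at 8.30 and 10.2 against 8.84 and 15.2, which overlap as listed, with a change of -0.64 (SE 0.19, limma adjusted p = 0.0446, n = 2 against 2). *STZ*, a zinc finger repressor of stress responses, was at 5.29 and 8.65 against 8.24 and 12.2, which also overlap as listed. Its change was -0.87 (SE 0.19, limma adjusted p = 0.00366, n = 2 against 2). On the same scale, relative to the library medians, the change with MeJA in WT was -0.03 at *AOS*, -0.16 at *AOC4* and 0.50 at *STZ*.

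No difference between the genotypes in the MeJA effect passed its own test. For *STZ* the MeJA effect in *axe1-5* minus that in WT was -1.33 on the log2 scale, with a limma adjusted p = 0.0840, which was the lowest of any gene and was shared with AT5G47800 (1.27). Of 8227 genes with a summit in all 8 lists, 0 (0%) passed the adjusted p of 0.05, while 395 were above 0 and 262 below 0 at an unadjusted p under 0.05 by limma. A difference that misses the threshold does not show that the genotypes respond alike.

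Over all genes the most significant fall was at *PYL5* (AT5G05440), an abscisic acid receptor, at 8.11 and 10.2 with MeJA and 11.6 and 18.02 in mock, a change of -0.97 (SE 0.18, limma adjusted p = 0.00111). In WT its change on the same scale was -0.10. The most significant rise was at AT3G22100, a bHLH gene, at 12.2 and 11.7 against 3.05 and 6.71, a change of 1.10 (SE 0.19, limma adjusted p = 3.17e-04). *EPR1*, an extensin-like gene of the endosperm, rose from 3.04 and 3.72 to 8.06 and 7.50 (0.91, limma adjusted p = 0.00112), and AT3G54580, another extensin-like gene, from 3.57 and 3.98 to 8.87 and 8.44 (0.90, limma adjusted p = 0.00184). Neither of these 2 extensin-like genes had a WT summit. The other genes among the 5 of lowest adjusted p in each direction were AT5G25590, annotated with domains of unknown function (0.96), and AT5G38500, a B3 domain gene (0.90), among the rises. Among the falls they were the uncharacterised AT2G27180 (-0.96), *PAPS1*, a poly(A) polymerase gene (-0.92), AT3G09180, a Mediator subunit (-0.90), and AT5G60460, a Sec61-beta subunit (-0.86).

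The genes called higher resembled the gained genes in WT. Of the 120, 32 (26.7%) had no WT summit, against 3.97% of all fitted genes, and 43 (35.8%) had one in all 4 WT lists, against 80.2%. Of the 61 lower genes 1 had no WT summit and 56 (91.8%) had one in all 4. In the listed fold enrichments both +MeJA values lay above both mock values for 120 of 120 higher genes, whereas for 22 of 61 lower genes both lay below, the rest resting on the division by the median. Over all 10262 fitted genes both lay above for 3235 and below for 46, so the listed values leaned upward in genes at large too.

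**Figure D5:**
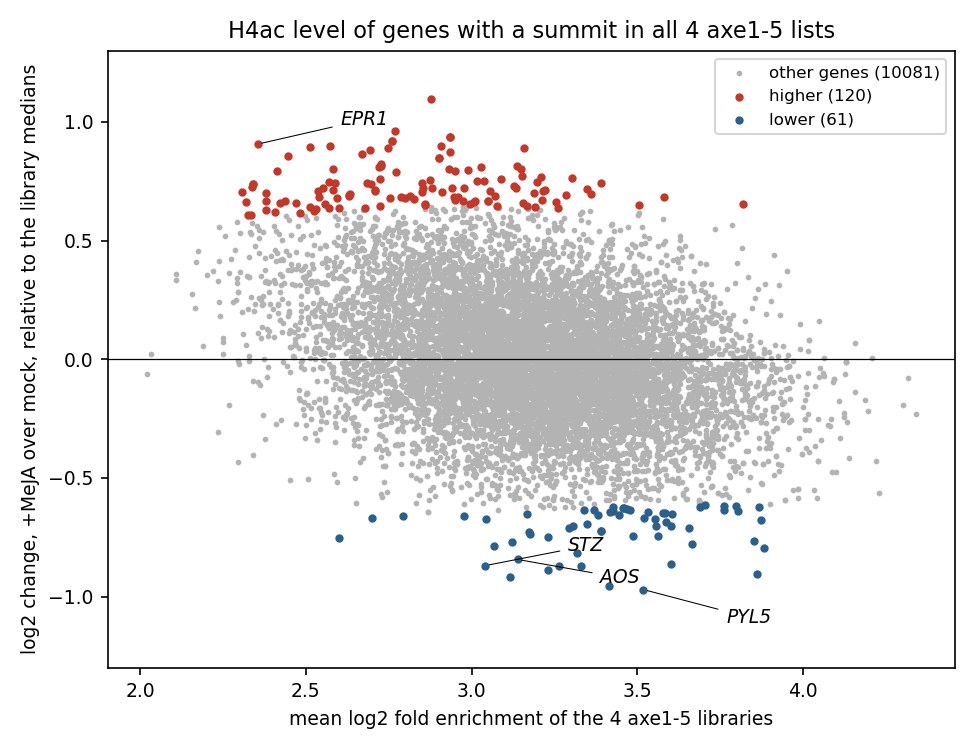
Change of H4ac level with MeJA in *axe1-5* (log2, relative to the library medians) against the mean log2 fold enrichment of the 4 libraries, 1 point per gene with a summit in all 4 lists. The 120 genes called higher by limma (red) lie mostly to the left, at low enrichment, and the 61 called lower (blue), among them *PYL5*, *AOS* and *STZ*, lie mostly to the right of them.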

How the data were processed

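The data were 15 peak lists of ChIP-Seq in whole seedlings, of which 4 H4ac lists (*axe1-5* +MeJA and mock, 2 replicates each) gave the comparison, and the 4 WT H4ac and 4 *axe1-5* H3K27me3 lists gave measures that the rule did not use, the latter called against the same inputs as H4ac. Per the submitters' processing notes, reads were trimmed with Trimmomatic 0.36.5, aligned with Bowtie (version not given in the sources used here) to TAIR10, and peaks were called by the authors in each library against its input with MACS 1.4.2. The deposited tag counts per peak come from reads left after removal of duplicates. The deposited score is the negative log10 of the peak p-value multiplied by 10, the deposited fold enrichment is a ratio of tags in the peak to those MACS predicts from the input, and the deposited FDR is in percent. Deeper libraries can list weaker peaks, although here the lowest listed fold enrichment was higher in each *axe1-5* +MeJA H4ac list than in the same-numbered mock list.

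Summits (start + summit) were placed in 37899 nuclear genes of TAIR10.1, any biotype. Gains and losses were counted with pandas 2.3.3, numpy 2.4.6 and scipy 1.17.1 under Python 3.11.15, figures drawn with matplotlib 3.10.9, and levels fitted with limma 3.58.1 in R 4.3.3 (eBayes with trend). All listed peaks were used, without a pseudocount or filter. On simulated data for the level fit over 10262 genes, 48 of 200 planted changes of 0.5 (log2) and 200 of 200 of 1 were found, with 3 and 11 false calls. The simulation gave every gene the same spread and no library effect, so it does not give the share found in the real lists.

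The genes of the comparison, the gene lists and the function groups (patterns in the annotation's product text) were chosen with earlier results of these data known. Of the list entries, 8 were dropped because their symbol differs from the annotation. Genes named were the 10 strongest protein-coding and 3 strongest non-coding gains and losses without an overlapping peak on the other side, ranked by the lower of the 2 values, list members, up to 3 per function group, examples of the 3 genes just inside and just outside the rule on each side and the 5 of lowest adjusted p in each direction of the level fit. Those of the groups named beyond 3, such as *FRK1*, *IKU2*, *DWF4* and *CESA1*, were chosen after their values were seen. A gene that this rule covers is not reported here. Replicates are separate samples in the labels. Alternatives were another score or FDR minimum, equal numbers of peaks, overlap or upstream assignment, protein-coding genes only, merged regions, other normalisations, a replicate block and leaving out each library, and the recount of 8 function groups was added after the data had been examined.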

Additional observations from a re-analysis of the deposited data

How the results depend on the processing

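Which genes were gained or lost depended on the peaks used. A score of at least 100 gave 699 gains and 717 losses, of which 292 and 246 were among the 808 and 671, and equal numbers of peaks gave 876 and 755 (568 and 474 shared). Requiring no overlapping peak gave 596 gains and 381 losses, with 1 loss shared with WT. Leaving out 1 library gave 1119 to 1925 gains and 906 to 1854 losses. Gains numbered 1609 without +MeJA replicate 2 and 1925 without mock replicate 1, and losses 1854, 1154 and 1692 without +MeJA replicate 1, +MeJA replicate 2 and mock replicate 2. The overlap with WT was recounted with 1 WT library left out at a time, the 808 gains and 671 losses being kept. Genes gained in both genotypes then numbered 66 to 93 and genes lost in both 18 to 27. With summits in the 2000 bp upstream included, 6 named losses reversed (mean fold enrichment with MeJA minus mock): AT3G62310 (0.31), AT1G26911 (3.645), *ORA47* (0.71), *MYBL2* (1.695), AT1G13930 (1.285) and AT5G43450 (1.775).

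The level calls, 120 higher and 61 lower, were less stable. Without division by the median there were 0 and 0, with quantile normalisation 26 and 20, with a score of at least 100 29 and 19, and with all 8 libraries in 1 fit 3 and 4. Leaving out 1 library gave 0 to 69 higher and 0 to 32 lower: 0 and 2 without +MeJA replicate 1, 25 and 10 without +MeJA replicate 2, 0 and 0 without mock replicate 1, and 69 and 32 without mock replicate 2. In these fits the lone library is assumed to vary like the others. The test between genotypes gave 1 gene with quantile normalisation and 0 to 17 with a library left out, 17 of them without WT mock replicate 1. The cause was not tested. After removal of the medians, same-numbered deviations correlated at r = 0.0019 over 10262 genes. The sources do not say whether same-numbered libraries were prepared together, and this value cannot settle it. With a replicate block limma called 169 higher and 76 lower genes and 0 between genotypes, and the 2-fold rule matched by number gave 933 gains and 671 losses.

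A summit just under the threshold of a list counts as absent, and the effect of depth on gains and losses was not tested.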
